A study of Mus musculus with 38 samples.

Results

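Complement is a cascade of plasma and tissue proteins that tags surfaces and debris for removal. In the classical pathway, C1q binds its target and sets off cleavage of C4 and then of C3, the cleavage fragments are read by receptors on myeloid cells, and C1 inhibitor holds the first step in check. In brain, microglia are the main source of C1q, astrocytes express C4 and can express C3, and complement is known for tagging synapses and for gathering around amyloid plaques.

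The 9 complement genes described here were chosen by name and matched to the deposited counts by Ensembl identifier, and they are 9 of the 48709 genes in the files. They are the 3 chains of C1q (C1qa, C1qb, C1qc), the components C4b and C3, the receptors C3ar1, C5ar1 and Itgam, and Serping1, which encodes C1 inhibitor. All 9 passed the filter on low counts in each of the 14 comparisons made.

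The hippocampus of 38 mice on a C57BL/6 background was sequenced as mRNA, each mouse giving 1 library. APPPS1ΔE9 mice carry mutant human transgenes, APP among them, known in this line to be driven by the mouse prion protein promoter, and were compared with wild-type (WT) mice. Mice were fed a placebo chow or a chow with anle138b, a diphenylpyrazole small molecule that interferes with amyloid aggregation. In the pre-plaque group the chow was given from before plaque formation and the mice were 6 months old at analysis, with 4 mice for every combination of genotype and chow. In the post-plaque group the chow was begun after the onset of plaque formation and the mice were 10 months old, with 5 WT mice on each chow, 5 APPPS1ΔE9 mice on placebo and 7 APPPS1ΔE9 mice on anle138b. Levels are given as CPM, the read count of a gene scaled to a fixed library size, here with the trimmed mean of M values (TMM) over all 38 mice.

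The C1q genes lie side by side on the minus strand of mouse chromosome 4 (GRCm38), C1qb at chr4:136880129-136886187, C1qc at chr4:136889804-136893065 and C1qa at chr4:136895917-136898803. C4b is at chr17:34728380-34743882 and C3 at chr17:57203970-57228136, C3ar1 at chr6:122847138-122856161, C5ar1 at chr7:16246743-16259540, Itgam at chr7:128062640-128118491 and Serping1 at chr2:84765387-84775444. RefSeq promoter entries (GRCm38.p6) were matched for 6 of the 9 genes, all but C1qa, C4b and Serping1. Shown here are the sequences upstream of C1qb and C1qc, which moved together, of C3ar1, which had the largest fold change among the 9 genes in the post-plaque genotype comparisons, and of C3, which passed the threshold in no comparison between groups. Each is read 5′ to 3′ on the minus strand and stops before the annotated gene, and capitals mark GAGGAA, the core of the site of the myeloid factor PU.1, or its reverse complement.
C1qb, chr4:136886201-136886450: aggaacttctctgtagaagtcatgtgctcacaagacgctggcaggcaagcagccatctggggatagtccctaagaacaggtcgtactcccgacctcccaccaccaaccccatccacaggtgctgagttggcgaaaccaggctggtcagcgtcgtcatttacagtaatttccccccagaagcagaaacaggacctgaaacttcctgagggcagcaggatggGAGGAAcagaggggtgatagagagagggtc
C1qc, chr4:136893066-136893164: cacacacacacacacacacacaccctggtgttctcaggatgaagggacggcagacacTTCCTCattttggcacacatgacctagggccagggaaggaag
C3ar1, chr6:122856162-122856407: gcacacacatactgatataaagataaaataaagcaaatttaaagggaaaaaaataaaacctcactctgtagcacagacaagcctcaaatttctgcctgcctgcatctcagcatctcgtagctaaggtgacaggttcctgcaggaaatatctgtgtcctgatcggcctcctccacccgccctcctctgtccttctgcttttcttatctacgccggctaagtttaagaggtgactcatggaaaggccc
C3, chr17:57228137-57228386: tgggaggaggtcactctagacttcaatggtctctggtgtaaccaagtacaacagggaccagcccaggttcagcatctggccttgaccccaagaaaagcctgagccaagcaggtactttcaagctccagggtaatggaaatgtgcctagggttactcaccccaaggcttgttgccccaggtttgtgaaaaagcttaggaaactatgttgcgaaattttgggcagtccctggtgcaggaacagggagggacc

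The GAGGAA match began 30 bases before the RefSeq start of C1qb and 193 bases before that of C1qc. Over windows of 300 bases, of which 50 follow the start, 3 of the 6 genes (C1qb, C1qc and Itgam) held GAGGAA on either strand, as did 28.3% of 32851 mouse promoters of that length. No match was found in the 6 windows for the core of the interferon-stimulated response element, which 3.44% of all promoters held, or for TTCNNNGAA, the core of the STAT site, which 8.30% held. These are matches of letters and say nothing of binding.

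Total counts were between 15847985 and 31895808 per mouse. App, part of the transgene, was between 1505.6 and 1809.4 CPM in the WT mice and between 3228 and 4318 CPM in the APPPS1ΔE9 mice, so the genotype labels and this gene did not conflict in any mouse, including 4 pre-plaque placebo-treated WT mice for which a second label names the transgenic genotype. High Xist, the RNA of the inactive X chromosome, was seen in 11 of 18 WT mice and 1 of 20 APPPS1ΔE9 mice, although the study describes its mice as male. Sequencing lane largely followed group: the post-plaque WT mice were on lanes 3 and 4, and the post-plaque APPPS1ΔE9 mice on lanes 5 and 6, so lane and genotype cannot be told apart. In the pre-plaque group, the WT mice were on lane 4 on placebo and on lanes 4 and 5 on anle138b. The APPPS1ΔE9 mice of that group were on lane 5 on placebo and lane 6 on anle138b. There, lane cannot be told apart from genotype, or from chow in APPPS1ΔE9 mice. Markers of the choroid plexus, a neighbouring tissue, ranged from 32.5 to 7924 CPM in sum over the mice.

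Per kilobase of exon, C1qa and C1qb were the highest of the 9 genes in every group. The length used is that of all annotated exons of a gene merged, 1040 bases for C1qa, 1088 for C1qb and 1931 for C1qc. In post-plaque placebo-treated WT mice, the level per kilobase was 44.0 ± 7.3 CPM for C1qa and 43.8 ± 5.1 for C1qb (SD, n = 5), which did not differ beyond their spread. C1qc followed at 17.9 ± 2.5, C4b at 12.7 ± 2.7 and Serping1 at 5.24 ± 1.13 CPM per kilobase. Itgam was at 1.60 ± 0.17, C3 at 0.918 ± 0.485, C3ar1 at 0.515 ± 0.070 and C5ar1 at 0.278 ± 0.091 CPM per kilobase, the level of C3 overlapping those of its neighbours on both sides. C5ar1 rested on 5 to 44 reads per mouse, C3ar1 on 30 to 176 and C3 on 33 to 282, while each C1q gene had at least 538 reads in every mouse. The plot of levels in each mouse shows all 9 genes in the 8 groups.

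**Figure D1:**
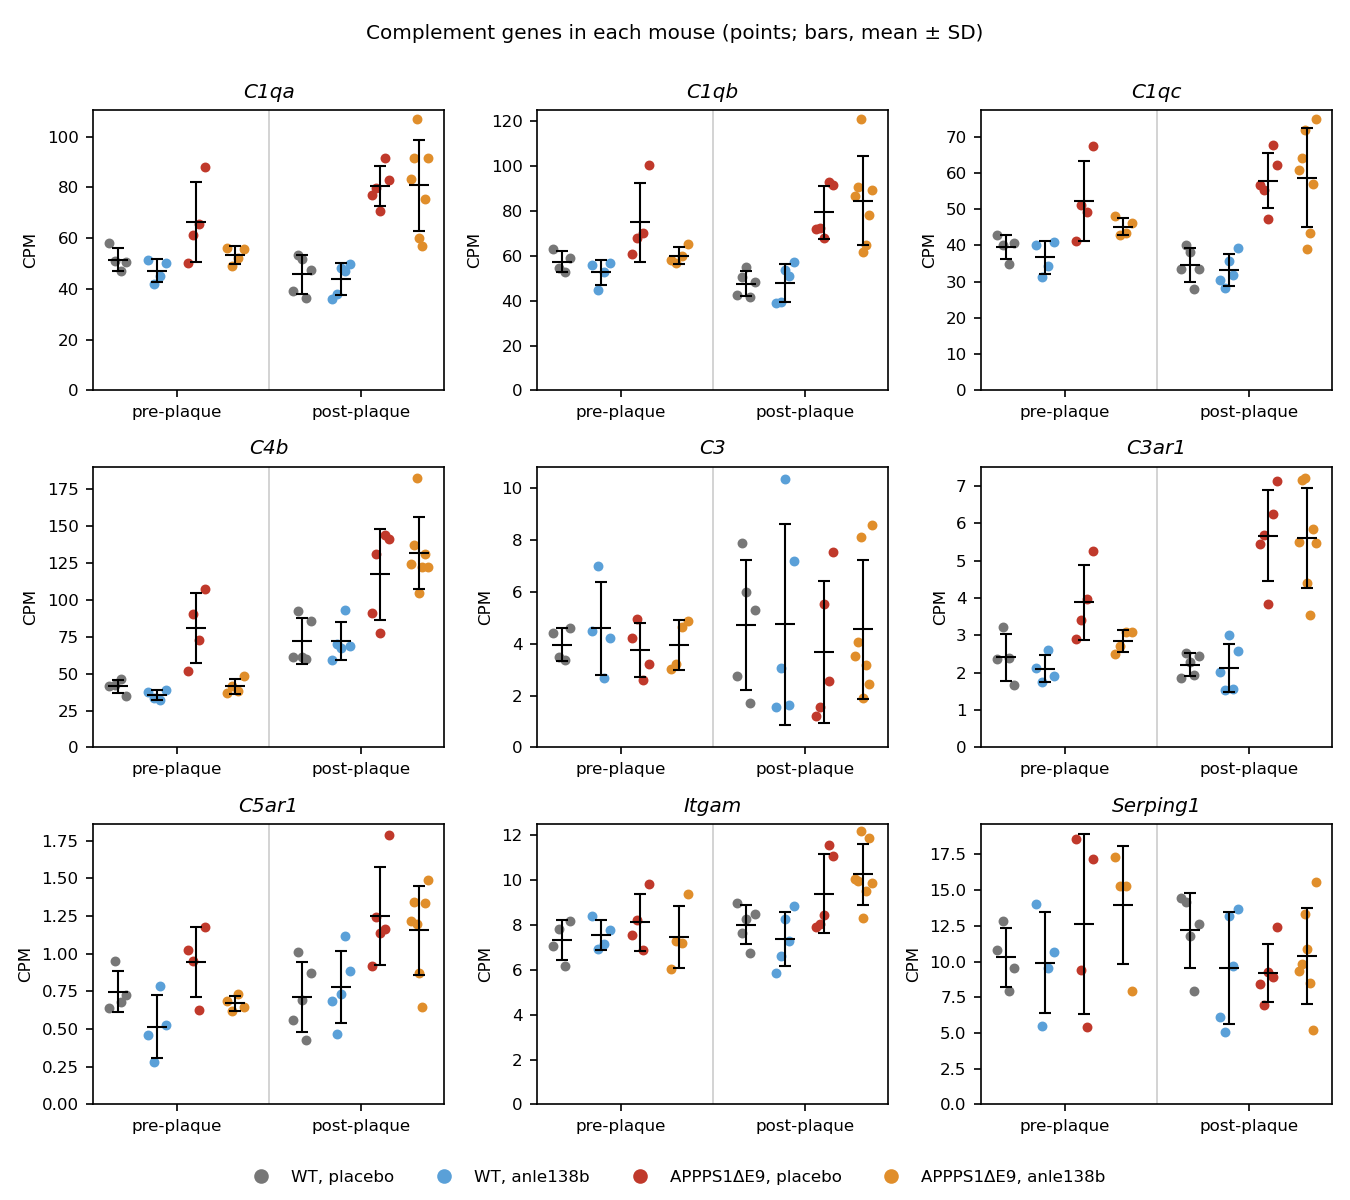
Level of each complement gene in CPM (linear axis from 0) in each of the 38 mice, by cohort, genotype and chow; points are mice, and bars give the mean ± SD. In the post-plaque group the 5 placebo-treated APPPS1ΔE9 mice had 70.7 to 91.7 CPM of C1qa against 36.3 to 53.5 in placebo-treated WT mice, while C3 overlapped between all groups of that cohort.

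C1qa, C1qb and C1qc were higher in post-plaque APPPS1ΔE9 mice than in WT mice on either chow, by 1.66- to 1.84-fold. On placebo, C1qa was at 39.3, 53.5, 51.9, 36.3 and 47.6 CPM in the 5 WT mice. It was at 77.1, 79.9, 70.7, 91.7 and 83.1 CPM in the 5 APPPS1ΔE9 mice. Every APPPS1ΔE9 mouse was above every WT mouse, and the log2 fold change was 0.81 ± 0.12 (SE, adjusted p = 0.0145, edgeR's quasi-likelihood test). C1qb, the second chain, was at 42.6, 50.6, 54.8, 41.7 and 48.4 CPM in the placebo-treated WT mice and at 72.0, 72.5, 67.8, 93.04 and 91.5 CPM in the placebo-treated APPPS1ΔE9 mice. C1qc was at 33.6, 40.1, 38.3, 27.9 and 33.4 CPM in the former and at 56.7, 55.2, 47.4, 67.8 and 62.1 CPM in the latter. Neither gene overlapped between the groups, and both changed by 0.73 ± 0.11 on the log2 scale (edgeR, adjusted p = 0.0249 for each).

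On anle138b, too, the 3 C1q genes rose. C1qa was at 36.2, 37.9, 48.2, 47.2 and 50.01 CPM in the WT mice and had a lowest value of 57.1, a median of 83.4 and a highest value of 107 CPM in the 7 APPPS1ΔE9 mice. The groups did not overlap, and the log2 fold change was 0.88 ± 0.16 (edgeR, adjusted p = 0.0289). C1qb went from 47.9 ± 8.4 to 84.5 ± 19.8 CPM (SD, n = 5 and 7) without overlap, by 0.82 ± 0.17 on the log2 scale (edgeR, adjusted p = 0.0612). C1qc went from 33.1 ± 4.4 to 58.7 ± 13.6 CPM, by 0.82 ± 0.16 (edgeR, adjusted p = 0.0529), with the lowest APPPS1ΔE9 mouse (38.9 CPM) inside the WT range. The 2 APPPS1ΔE9 mice lowest in each of the 3 genes were mice 4 and 5 of the group. Leaving out 1 of the 12 mice ended the call of C1qa for WT mouse 1 or 2 (adjusted p = 0.104 and 0.120). The calls of C1qb and C1qc ended without WT mouse 1, 2 or 4 or APPPS1ΔE9 mouse 1, 2, 6 or 7, and that of C1qc also without APPPS1ΔE9 mouse 3, with adjusted p up to 0.228 for C1qb and 0.208 for C1qc (edgeR).

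C4b, the mouse C4 gene whose product is cleaved next in the classical pathway, was 1.84-fold higher in post-plaque APPPS1ΔE9 mice than in WT mice on anle138b and 1.62-fold higher on placebo, where it missed the threshold. On anle138b it was at 58.98, 70.3, 67.3, 93.5 and 69.0 CPM in the WT mice, and at a lowest value of 105, a median of 124 and a highest value of 183 CPM in the APPPS1ΔE9 mice. No values overlapped, and the log2 fold change was 0.88 ± 0.14 (edgeR, adjusted p = 0.0109). On placebo C4b was at 61.5, 92.6, 61.5, 60.1 and 85.6 CPM in the WT mice and at 91.4, 131, 77.6, 144 and 142 CPM in the APPPS1ΔE9 mice. Here 2 APPPS1ΔE9 mice lay within the WT range, and the log2 fold change of 0.69 ± 0.20 had an unadjusted p of 0.00632 and an adjusted p of 0.567 (edgeR). Of the windows of 50 bases in the C4b transcript, 35.2% also occur in its paralog C4a, so reads can be lost or shared between the genes. C4a was between 1.18 and 3.54 CPM in all mice, and adding its counts to those of C4b left the call in each of the 4 genotype comparisons as it was.

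C3, on which the complement pathways converge, did not pass the threshold in any comparison. On placebo, post-plaque mice had C3 levels of 2.74, 7.89, 5.98, 1.71 and 5.28 CPM in WT mice and of 1.21, 1.58, 5.52, 2.57 and 7.55 CPM in APPPS1ΔE9 mice. The values spread over more than 4-fold within each group and overlapped throughout, with a log2 fold change of -0.38 ± 0.55 (edgeR, adjusted p = 0.99997). On anle138b the log2 fold change of C3 was -0.07 ± 0.53 (edgeR, adjusted p = 0.977). With standard errors of this size, a 1.5-fold change of C3 was not detectable in the post-plaque group. In the pre-plaque group, where C3 was at 2.61 to 6.997 CPM, the log2 fold change was -0.06 ± 0.19 on placebo and -0.21 ± 0.28 on anle138b.

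Among the receptors, C3ar1, the receptor for the C3a fragment, had the largest fold change of the 9 genes. On placebo it was at 1.87, 2.53, 2.299, 1.93 and 2.45 CPM in post-plaque WT mice and at 5.44, 5.68, 3.83, 6.26 and 7.14 CPM in APPPS1ΔE9 mice. The groups did not overlap, and C3ar1 was 2.54-fold higher, a log2 fold change of 1.34 ± 0.17 (edgeR, adjusted p = 0.00826). On anle138b C3ar1 was at 2.03, 1.53, 3.005, 1.56 and 2.57 CPM in the WT mice and at a lowest value of 3.55, a median of 5.50 and a highest value of 7.22 CPM in the APPPS1ΔE9 mice. It was 2.60-fold higher without overlap, a log2 fold change of 1.38 ± 0.22 (edgeR, adjusted p = 0.0111).

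C5ar1, the receptor for the C5a fragment, was at 0.713 ± 0.234 CPM in post-plaque placebo-treated WT mice and 1.25 ± 0.32 CPM in APPPS1ΔE9 mice (SD, n = 5 each). Itgam, which encodes CD11b, the alpha chain of complement receptor 3, was at 8.02 ± 0.85 and 9.40 ± 1.76 CPM in the same groups. Neither passed the threshold of edgeR on a single chow, where the log2 fold change of C5ar1 was 0.78 ± 0.26 on placebo and 0.57 ± 0.24 on anle138b, and that of Itgam 0.23 ± 0.13 and 0.47 ± 0.12 (edgeR, adjusted p between 0.194 and 0.99997). Averaged over both chows in a fit of the 4 post-plaque groups, C5ar1 changed by 0.68 ± 0.18 and Itgam by 0.35 ± 0.09 on the log2 scale (edgeR, adjusted p = 0.0831 and 0.0685). These 2 calls were marginal: leaving out a single mouse removed the call of C5ar1 for 15 of the 22 mice (adjusted p up to 0.188) and that of Itgam for 10 of 22 (up to 0.161). On anle138b alone Itgam passed with DESeq2 (adjusted p = 0.0224, 1.1% of all genes called), with Y-linked expression as a covariate (edgeR, adjusted p = 0.00757) and without APPPS1ΔE9 mouse 4 (edgeR, adjusted p = 0.0856). Itgam shares exon positions with Gm49368 on the same strand, so the assignment of its reads is less certain.

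Serping1, the inhibitor of the first step, did not pass the threshold in any comparison. Post-plaque levels were 12.2 ± 2.6 CPM in placebo-treated WT, 9.19 ± 2.01 in placebo-treated APPPS1ΔE9, 9.53 ± 3.94 in anle138b-treated WT and 10.4 ± 3.4 CPM in anle138b-treated APPPS1ΔE9 mice. The log2 fold change between genotypes was -0.41 ± 0.18 on placebo and 0.12 ± 0.29 on anle138b (edgeR, adjusted p = 0.99997 and 0.933). In the pre-plaque placebo-treated APPPS1ΔE9 mice its values were 18.6, 9.39, 5.39 and 17.2 CPM, both above and below the range of the WT mice.

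In all, 4 of the 9 genes rose in post-plaque APPPS1ΔE9 mice on placebo (C1qa, C1qb, C1qc and C3ar1), where 0.324% of the 16971 genes tested were called. On anle138b 5 of 9 rose, the same 4 and C4b, where 0.723% of 17151 genes were called. Averaged over the chows 7 of 9 rose, all but C3 and Serping1, where 1.43% of 17668 genes were called. The median log2 fold change of the 9 genes was 0.73, 0.82 and 0.77 in these comparisons, and that of all genes tested was -0.00246, -0.00250 and -0.00437. The chow did not change the genotype effect of any of the 9 genes past the threshold in the post-plaque group (edgeR, 0 of 9 called and 0 at an unadjusted p under 0.05, with 0% of all genes called; DESeq2, 0 of 9, with 0.0113% of all genes called).

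The calls on placebo changed with the handling of sex. With Y-linked expression as a covariate, none of the 9 genes passed the threshold on placebo (0 of 9, edgeR; 4 of 9 without the covariate), where 0.0766% of all genes were called. On anle138b 6 of 9 did, where 1.57% of all genes were called, and averaged over chows 6 of 9, where 1.56% were. Using only mice with Y-linked expression, an alternative chosen after seeing the data for the single chows, left 2 WT mice on each chow, and the numbers called were 0 of 9 on placebo, 3 of 9 on anle138b (C1qb, C4b and C3ar1) and 5 of 9 averaged over chows, where 0.0453%, 0.289% and 0.85% of all genes were called. On placebo the log2 fold changes in these mice were 0.66 for C1qa, 0.67 for C1qb, 0.65 for C1qc and 1.18 for C3ar1. Within the post-plaque WT mice, the means of the 6 mice with high Xist and of the 4 without were 45.5 and 43.8 CPM for C1qa, 50.1 and 44.3 for C1qb, 68.8 and 76.9 for C4b, and 2.20 and 2.13 CPM for C3ar1, all with overlapping values. Within the pre-plaque WT mice the C1q genes did not overlap between the 5 mice with high Xist and the 3 without. C1qa was at 50.2 to 57.9 CPM in the former and 41.8 to 46.9 in the latter, C1qb at 54.5 to 63.1 and 44.7 to 52.9, and C1qc at 39.99 to 42.8 and 31.3 to 34.9 CPM. These differences were not tested.

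**Figure D2:**
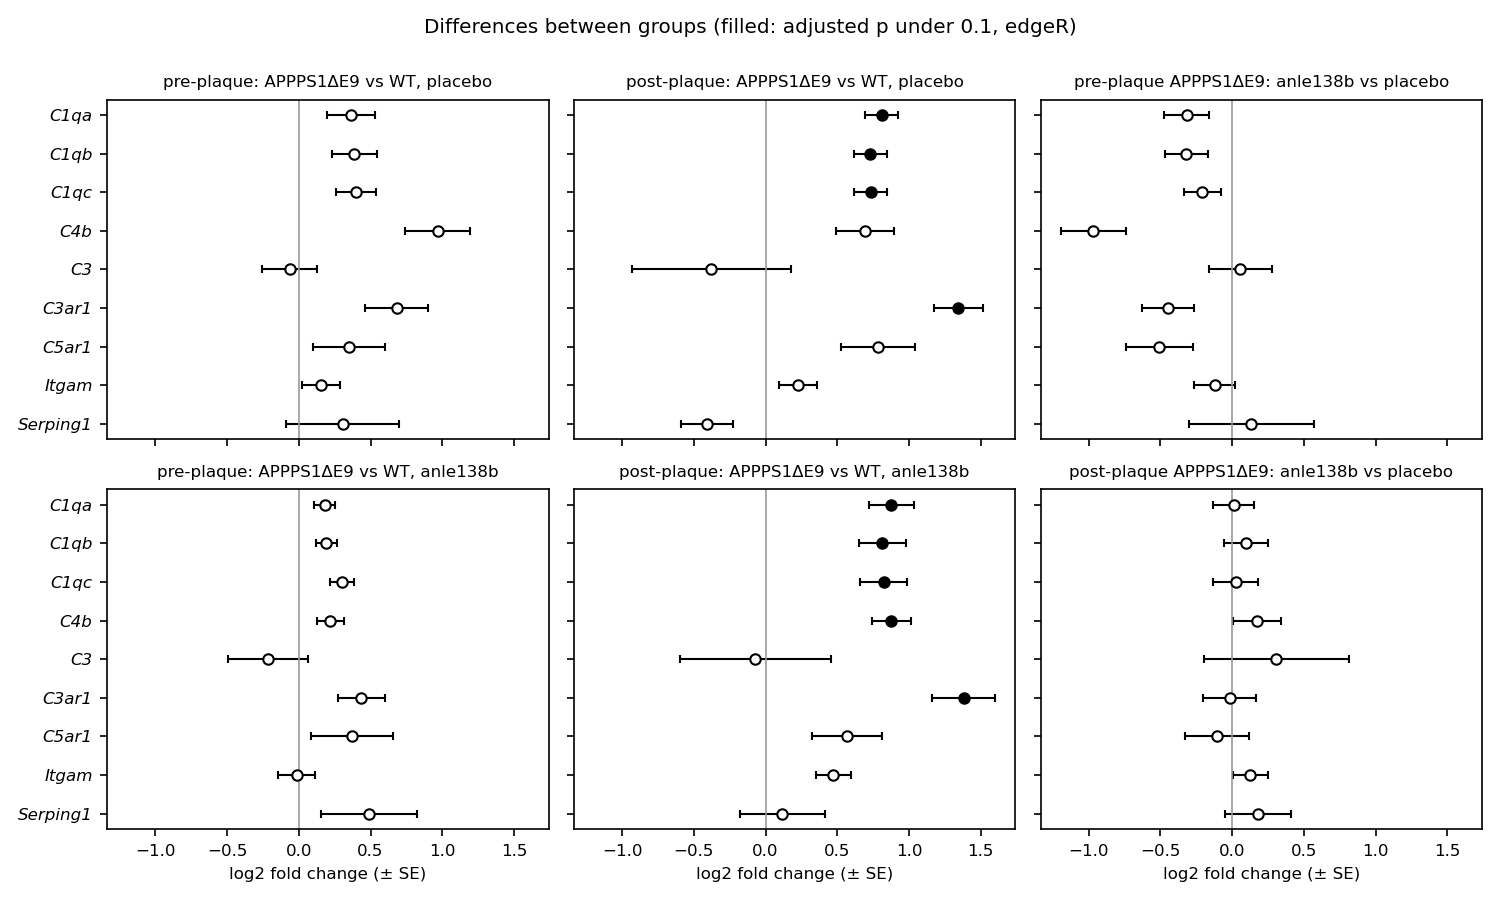
Log2 fold change ± SE (edgeR) of each complement gene in 6 comparisons: APPPS1ΔE9 against WT on each chow in each cohort, and anle138b against placebo in APPPS1ΔE9 mice; filled points have an adjusted p under 0.1. Filled points are C1qa, C1qb, C1qc and C3ar1 in both post-plaque genotype comparisons and C4b on anle138b, and all other points are open.

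In the pre-plaque group, none of the 9 genes passed the threshold between genotypes by edgeR. On placebo 0 of 9 were called, 4 were at an unadjusted p under 0.05, and 0.0715% of all genes were called. DESeq2 called C4b and C1qc, and 2.18% of the 6367 genes that it gave an adjusted p. It gave none to C3, C3ar1, C5ar1, Itgam and Serping1, so these could not be called. On anle138b 0 of 9 were called by edgeR and 0 by DESeq2, 5 were at an unadjusted p under 0.05, and 0.047% of all genes were called by edgeR and 0.289% by DESeq2. On placebo C4b was at 41.7, 42.1, 46.3 and 35.1 CPM in WT mice and at 52.1, 90.7, 73.0 and 107 CPM in APPPS1ΔE9 mice. All 4 APPPS1ΔE9 mice were above all 4 WT mice, and the log2 fold change was 0.97 ± 0.23, with an unadjusted p of 0.00426 and an adjusted p of 0.349 (edgeR), or 0.00988 with DESeq2. Without mouse 1 of the placebo-treated APPPS1ΔE9 group, the lowest of the 4, C4b had a log2 fold change of 1.13 (edgeR, adjusted p = 0.0128) and C1qc one of 0.49 (adjusted p = 0.0855). The C1q genes were higher by 0.36 to 0.40 and C3ar1 by 0.68 on the log2 scale, with overlapping values and adjusted p between 0.360 and 0.469 (edgeR). Averaged over both chows, 0 of 9 genes were called by edgeR, 5 were at an unadjusted p under 0.05, and 0.218% of all genes were called. DESeq2 called 3 (C4b, C1qc and C3ar1), and 1.17% of the 13966 genes that it gave an adjusted p, C5ar1 not among them. Without the same mouse, C4b and C1qc were called by edgeR here too (log2 fold change 0.68 and 0.40, adjusted p = 0.00315 and 0.0461). High Xist was seen in 3 of 4 placebo-treated and 2 of 4 anle138b-treated pre-plaque WT mice, and in 0 APPPS1ΔE9 mice. With Y-linked expression as a covariate, C4b changed by 0.79 ± 0.38 on placebo (edgeR, unadjusted p = 0.0831, adjusted p = 0.996). C1qa, C1qb and C1qc then changed by 0.45, 0.46 and 0.53 on placebo (edgeR, adjusted p = 0.996 each). On anle138b they changed by 0.28, 0.29 and 0.45 (edgeR, adjusted p = 0.469, 0.469 and 0.1001).

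The composition of the tissue differed between the mice behind these pre-plaque values. The summed level of the 5 choroid plexus markers was 6635, 64.1, 715 and 186 CPM in placebo-treated APPPS1ΔE9 mice 1 to 4, so that the mouse lowest in C4b was the highest in these markers. Each of the other 3 pre-plaque groups held 1 mouse between 168 and 254 CPM and 3 mice between 3943 and 7924 CPM. Over the 38 mice, deviations of C4b and of this list from their group means had a Pearson's r of -0.23 and a Spearman's rho of -0.17 (permutation p = 0.206, adjusted p = 0.349). The post-plaque groups had medians of 83.9 to 134 CPM in this list, so this correlation says little of the pre-plaque mice. The part of choroid plexus tissue in the C4b values was not tested.

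The comparison of chows asks whether anle138b changed the expression of these genes in APPPS1ΔE9 mice. In the pre-plaque group these mice were on a separate lane for each chow, so chow and lane cannot be told apart. In the pre-plaque group C4b was at 36.6, 41.9, 38.1 and 48.6 CPM in the anle138b-treated APPPS1ΔE9 mice, all below the 4 placebo-treated ones. Their values overlapped those of the WT mice, which were between 32.1 and 46.3 CPM on both chows. The log2 fold change of anle138b against placebo was -0.97 ± 0.23, with an unadjusted p of 0.00416 and an adjusted p of 0.292 (edgeR), or 0.0132 with DESeq2. Without mouse 1 of the placebo-treated APPPS1ΔE9 group, the mouse with the high choroid plexus level, it was -1.13 (edgeR, adjusted p = 0.0308). The remaining mice of that group were low in choroid plexus markers while most anle138b-treated ones were high, so the tissue then differed more between the chows. In WT mice of this cohort C4b had a log2 fold change of -0.22 on anle138b (edgeR, adjusted p = 0.99984). The genotype effect on C4b on anle138b minus that on placebo was -0.74 ± 0.25 on the log2 scale, with an unadjusted p of 0.0106 and an adjusted p of 0.618 (edgeR), or -0.91 and 0.0969 without that mouse.

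In pre-plaque APPPS1ΔE9 mice the other 8 genes had smaller log2 fold changes between the chows than C4b. On anle138b, C1qa was at 53.3 ± 3.4 CPM against 66.4 ± 15.95 on placebo (SD, n = 4 each), and C3ar1 at 2.85 ± 0.29 against 3.89 ± 1.01 CPM. Their log2 fold changes were -0.32 ± 0.16 and -0.45 ± 0.18 (edgeR, adjusted p = 0.431 and 0.350). By edgeR 0 of 9 genes were called in this comparison, 2 were at an unadjusted p under 0.05 (C4b and C3ar1), and 0.0529% of all genes were called. DESeq2 called 1 (C4b), and 1.42% of the 14344 genes that it gave an adjusted p, C5ar1 not among them. In the interaction of genotype and chow of this cohort, edgeR called 0 of 9 genes, with 1 (C4b) at an unadjusted p under 0.05, and 0% of all genes. DESeq2 called none of the 9 there, and 0.277% of the 7952 genes that it gave an adjusted p. It gave none to C3, C3ar1, C5ar1, Itgam and Serping1, so these could not be called. The single mice behind the placebo values stood in the same order for C1qa (50.3, 61.3, 65.7 and 88.2 CPM) and C3ar1 (2.91, 3.41, 3.97 and 5.25 CPM), with mouse 1 lowest in both and in C4b.

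Between chows, none of the 9 genes passed the threshold in the post-plaque group. Lane largely followed chow here too. All 5 placebo-treated APPPS1ΔE9 mice were on lane 5, and 6 of the 7 anle138b-treated ones on lane 6. Of the WT mice, 4 of 5 on placebo were on lane 3, and all 5 on anle138b on lane 4. C1qa was at 80.9 ± 17.96 CPM in anle138b-treated and 80.5 ± 7.7 CPM in placebo-treated APPPS1ΔE9 mice (SD, n = 7 and 5), a log2 fold change of 0.01 ± 0.14. C4b was at 132 ± 24 and 117 ± 31 CPM, a log2 fold change of 0.17 ± 0.17, and C3ar1 at 5.60 ± 1.34 and 5.67 ± 1.22 CPM, a log2 fold change of -0.02 ± 0.19 (edgeR, adjusted p = 0.999 for each). By edgeR 0 of 9 genes were called, 0 were at an unadjusted p under 0.05, DESeq2 called 0, and 0% of all genes were called. In WT mice, too, edgeR and DESeq2 called 0 of 9 genes between chows in either cohort (0% of all genes called in both), with 1 gene, C4b, at an unadjusted p under 0.05 in pre-plaque mice and 0 in post-plaque mice.

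Comparing the cohorts, the genotype effect averaged over chows was larger in the post-plaque than in the pre-plaque group by 0.58 ± 0.15 for C1qa and 0.81 ± 0.21 for C3ar1 on the log2 scale (edgeR, unadjusted p = 0.000459 and 0.000565, adjusted p = 0.186 and 0.206). For C4b the difference was 0.20 ± 0.18 (unadjusted p = 0.294). By edgeR 0 of 9 genes were called here, 5 were at an unadjusted p under 0.05, and 0.176% of all genes were called. DESeq2 called 2 (C1qa and C3ar1), and 0.33% of all genes. Without mouse 4 of the pre-plaque placebo-treated APPPS1ΔE9 group edgeR called both (adjusted p = 0.0406 and 0.0855), as it did without mouse 5 of the post-plaque anle138b-treated APPPS1ΔE9 group (0.0746 and 0.0930). It called C1qa alone without mouse 4 of the latter group (0.0833), and C3ar1 alone without mouse 3 of the post-plaque placebo-treated APPPS1ΔE9 group (0.0996) or mouse 3 of the post-plaque anle138b-treated WT group (0.0959). Among WT mice alone, C4b was 1.88-fold higher in the post-plaque than in the pre-plaque group, a log2 fold change of 0.91 ± 0.13 (edgeR, adjusted p = 1.78e-06). It was at 32.1 to 46.3 CPM in the 8 pre-plaque and 58.98 to 93.5 CPM in the 10 post-plaque WT mice, without overlap. C4b was the only 1 of the 9 genes called, in a comparison that called 49.6% of all genes. In it, age, tissue composition and any sequencing batch of the cohorts cannot be told apart. The sample titles repeat the same sample numbers on lane 4 in both cohorts, so that lane may not be a shared one and may hold no batch constant. Within lane 4, an alternative chosen after seeing the data, C4b was at 33.2 to 46.3 CPM in 6 pre-plaque and 58.98 to 93.5 CPM in 6 post-plaque WT mice. Its log2 fold change there was 1.04 ± 0.12 (edgeR, adjusted p = 0.000565, 28.9% of all genes called), with the lone placebo-treated post-plaque mouse assumed to vary like the others. C1qa, C1qb and C1qc had log2 fold changes between -0.20 and -0.14 from younger to older WT mice (edgeR, adjusted p between 0.136 and 0.316), and C1qb passed at -0.23 without mouse 5 of the post-plaque anle138b-treated WT group (adjusted p = 0.0956).

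Ratios within a mouse were used to ask whether C4b, C3 and the C1q genes moved by unequal amounts, since a ratio does not depend on the depth of the library. In pre-plaque mice, the log2 ratio of C4b to C1qa was 0.26 ± 0.22 in placebo-treated APPPS1ΔE9 mice, -0.32 ± 0.23 in placebo-treated WT mice and -0.37 ± 0.20 in anle138b-treated APPPS1ΔE9 mice (SD, n = 4 each). The first group overlapped neither of the others. Both differences (0.58 against WT and -0.64 on anle138b) had an exact two-sided permutation p of 0.0286, the smallest that 4 against 4 mice can give, and an adjusted p of 0.229 over the 18 ratio tests. In the post-plaque group the ratio of C4b to C1qa differed between genotypes by -0.15 on placebo and 0.02 on anle138b (exact permutation, p = 0.317 and 0.902), within the spread of the mice.

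The mean ratio of C3 to C1qa was lower in APPPS1ΔE9 than in WT mice in all 4 genotype comparisons, with differences between -1.31 and -0.35 on the log2 scale, and the groups overlapped in each. The largest difference was in the post-plaque placebo-treated mice, at -4.74 ± 1.12 in APPPS1ΔE9 and -3.43 ± 0.64 in WT mice (SD, n = 5 each), with an exact permutation p of 0.0635 and an adjusted p of 0.229. The mean ratio of C4b to C3 was higher in APPPS1ΔE9 mice by 0.38 to 1.17 in the same 4 comparisons, with exact permutation p between 0.0571 and 0.286. None of the 18 ratio tests passed an adjusted p of 0.1 (0 of 18, and 2 at an unadjusted p under 0.05). A pre-plaque ratio test could not have passed on its own, since its exact permutation p cannot be under 0.0286. The same held for the post-plaque genotype tests on placebo. The smallest exact p of 5 against 5 mice is also too large to pass alone after adjustment over 18 tests.

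**Figure D3:**
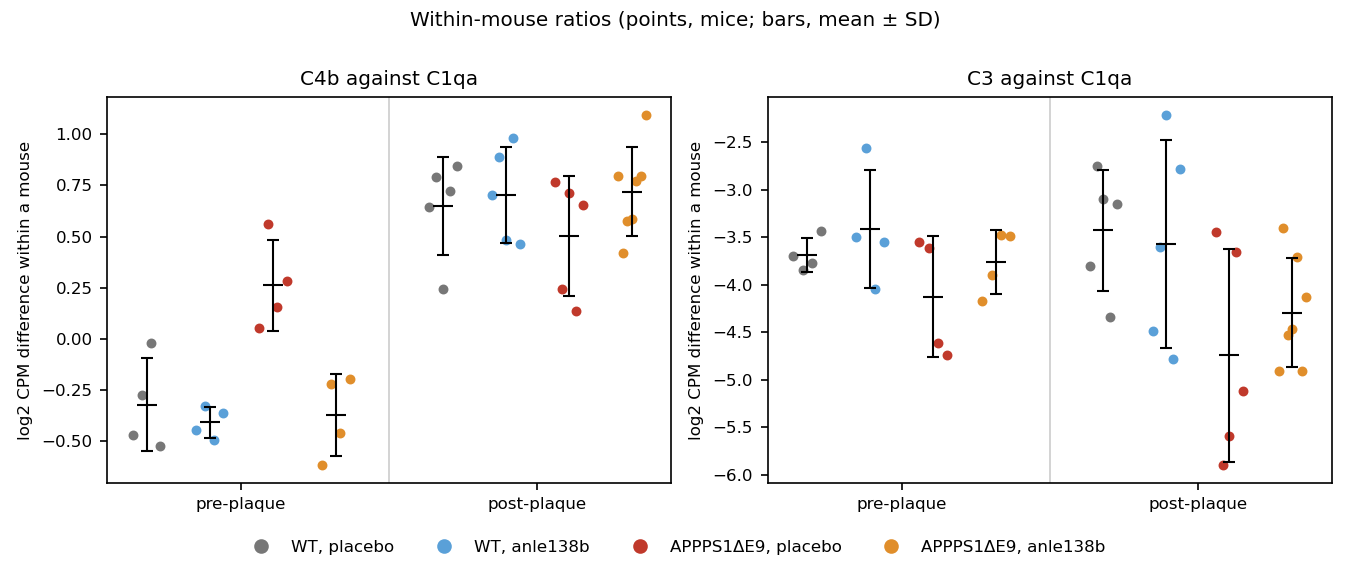
Difference of log2 CPM within each mouse between C4b and C1qa (left) and between C3 and C1qa (right), by cohort, genotype and chow; points are mice, and bars give the mean ± SD. The 4 pre-plaque placebo-treated APPPS1ΔE9 mice lie above 0 for C4b against C1qa, while the other pre-plaque mice lie below 0.

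Between mice of the same group, the 3 C1q genes varied together. Correlations were computed over the 38 mice on deviations of log2 CPM from the group mean, so that genotype, chow and cohort did not enter, with permutation within groups and adjustment over the 36 pairs. C1qa and C1qb had a Pearson's r of 0.94 and a Spearman's rho of 0.92, C1qa and C1qc an r of 0.93 and a rho of 0.91, and C1qb and C1qc an r of 0.89 and a rho of 0.89. Each had a permutation p of 1e-05, the smallest that 100000 permutations can give, and an adjusted p of 0.00012. Over all mice, the log2 ratio of C1qa to C1qb stayed between -0.27 and 0.14. C1qa was also correlated with C3ar1 (r = 0.68, rho = 0.66, permutation p = 8e-05, adjusted p = 0.00048) and C4b (r = 0.65, rho = 0.59, permutation p = 0.0002, adjusted p = 0.00088), with an r of 0.66 and 0.59 after leaving out the 2 mice farthest from the median of C1qa.

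Over all 38 mice, C3 and Serping1 had lower correlations with the C1q genes than the other members had. The r of C3 with C1qa was 0.44 (rho = 0.47, permutation p = 0.012, adjusted p = 0.018, r = 0.41 without the 2 mice), and that with C4b was 0.18 (rho = 0.26, permutation p = 0.349, adjusted p = 0.359). Of the 36 pairs all had a positive r and 31 passed an adjusted p of 0.1, among them 5 of the 8 pairs with C3. The share of pairs of other genes that would pass was not computed, so such counts cannot be called particular to complement genes. Serping1 had an r of 0.38 with C1qa (rho = 0.44, permutation p = 0.0552, adjusted p = 0.0662, r = 0.36 without the 2 mice). With Serping1, C4b had an r of 0.06 (rho = 0.13, permutation p = 0.760, adjusted p = 0.760). Apart from each other, the 20 APPPS1ΔE9 mice gave 22 pairs past the threshold and the 18 WT mice 16. Serping1 had an r of 0.74, 0.79 and 0.82 with C1qa, C1qb and C1qc in the WT mice (permutation, adjusted p = 0.0101, 0.0184 and 0.00171). In the APPPS1ΔE9 mice these values were 0.17, 0.25 and 0.22 (adjusted p = 0.614, 0.473 and 0.509). C4b and C3ar1 had an r of 0.76 in the APPPS1ΔE9 mice and 0.09 in the WT mice. The differences between the genotypes in r were not tested.

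Marker genes of cell types moved with the same deviations. In a second family of 81 relations, between the 9 genes and the summed level of 9 marker lists, the microglial list, which holds Aif1, Cx3cr1, P2ry12, Tmem119 and Csf1r among its 6 genes, had an r of 0.85 with C1qa (rho = 0.82), 0.90 with C1qb (rho = 0.90) and 0.82 with C1qc (rho = 0.83), each with a permutation p of 1e-05 and an adjusted p of 0.000203. The astrocyte list had an r of 0.62 with C4b (rho = 0.56, permutation p = 0.00015, adjusted p = 0.00174), and -0.18 with C3. C4b had a similar r with the microglial list (0.63, rho = 0.61, permutation p = 0.00025, adjusted p = 0.00253). The astrocyte list also had an r of 0.51 with C1qa, 0.53 with C1qb and 0.44 with C1qc. C3 was most strongly correlated with the oligodendrocyte list, which holds Mbp, Mog and Mag among its 4 genes (r = 0.83, rho = 0.73, permutation p = 5e-05, adjusted p = 0.00081, r = 0.78 without the 2 mice farthest from the median of C3). That list ranged from 1927 to 6011 CPM over the mice, and its part in the spread of C3 was not tested. It also had an r of 0.50 with C1qa, 0.56 with C1qb and 0.51 with C1qc (permutation, adjusted p = 0.0238, 0.0142 and 0.0194). C3 had an r of 0.55 with the microglial list (rho = 0.56, permutation p = 0.00251, adjusted p = 0.0146). Serping1 had an r of -0.59 with the neuronal list (rho = -0.62, permutation p = 0.00054, adjusted p = 0.00437) and 0.59 with the list of blood monocytes and neutrophils (rho = 0.53, permutation p = 0.00089, adjusted p = 0.00655), whose summed level was between 0.340 and 6.49 CPM.

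**Figure D4:**
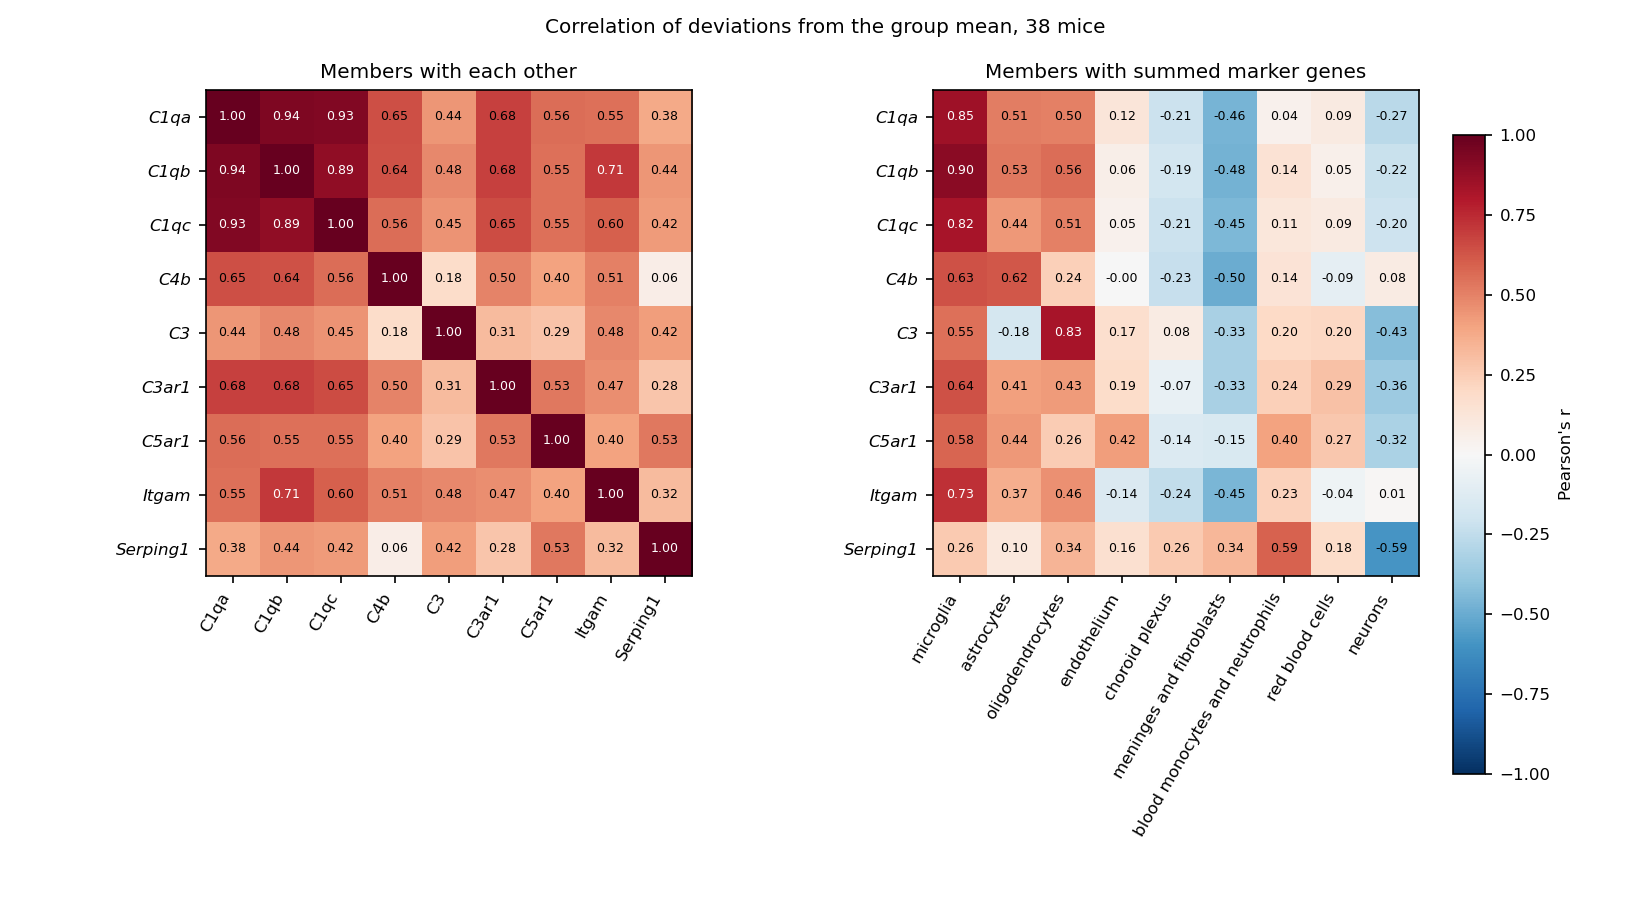
Pearson's r of deviations from the group mean of log2 CPM over 38 mice, between the 9 complement genes (left) and between these genes and the summed level of 9 marker lists (right); colour runs from -1 (blue) to 1 (red). The C1q genes form a block of 0.89 to 0.94, and C3 has its highest value, 0.83, with the oligodendrocyte list.

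Over 18232 genes, those whose deviations were most like C1qa included C1qb, C1qc, Trem2 (r = 0.87) and Unc93b1 (0.86). Those most like C4b were Gfap (0.79), which encodes the intermediate filament of astrocytes, then Gpam (0.77), Rasal3 (0.72), Serpina3n (0.72), which encodes a serine protease inhibitor, and Lrtm2 (0.70). Those most like C3 were Afap1l2 (0.89), Gltp (0.88), Fbxo32 (0.87), Aldh1a1 (0.87) and Cd109 (0.87). Neither the list of C3 nor that of C4b held another of the 9 genes.

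The defining markers also differed between genotypes in the post-plaque group. Averaged over chows, the microglial markers Aif1, Cx3cr1 and Csf1r rose, by 0.41 to 0.46 on the log2 scale, while P2ry12 and Tmem119 had log2 fold changes of 0.20 each (edgeR, adjusted p = 0.303 and 0.489). The summed microglial level was between 258 and 324 CPM in post-plaque WT mice and between 328 and 500 CPM in APPPS1ΔE9 mice, without overlap. Of the 6 astrocyte markers 1 rose, Gfap, by 0.997 on the log2 scale (edgeR, adjusted p = 0.0047), and the median of the list was 0.01. In tissue RNA, more cells of a type and more RNA per cell cannot be told apart, for the C1q genes and for C4b alike.

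Of a list of 49 further genes, 30 to 33 were tested in each genotype comparison on a single chow. On placebo 1 of 30 rose in pre-plaque and 1 of 32 in post-plaque mice, and on anle138b 0 of 31 and 2 of 33, with none falling. Of all genes, 0.0715%, 0.324%, 0.047% and 0.723% were called in these 4 comparisons. The 2 genes were receptors. Itgax, which encodes CD11c, the alpha chain of complement receptor 4, was at 0.515 ± 0.072 CPM in post-plaque placebo-treated WT and 3.81 ± 1.27 CPM in APPPS1ΔE9 mice, a log2 fold change of 2.87 ± 0.25 (edgeR, adjusted p = 0.000453). It was at 0.413 ± 0.187 and 5.26 ± 1.26 CPM on anle138b (log2 fold change 3.65 ± 0.30, edgeR, adjusted p = 6.44e-05), and, on placebo before plaques, at 0.393 ± 0.198 and 2.08 ± 0.72 CPM (log2 fold change 2.41 ± 0.37, edgeR, adjusted p = 0.0419). Itgb2, the beta chain shared by Itgam and Itgax, was at 6.62 ± 0.72 and 12.3 ± 2.6 CPM in post-plaque WT and APPPS1ΔE9 mice on anle138b, a log2 fold change of 0.88 ± 0.14 (edgeR, adjusted p = 0.0129).

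None of the tested genes of the classical and lectin, alternative or terminal pathways or of the regulators passed the threshold between genotypes on either chow. With at most 0.723% of all genes called, lists of this size would hold few or no calls in any case. Among post-plaque mice this covered 9 of 15 classical and lectin genes, among them the proteases that act with C1q, 2 of 3 alternative pathway genes and 13 of 17 regulators, and between 2 and 3 of 7 terminal genes. The median log2 fold changes of the post-plaque mice were between -0.06 and 0.05 for the classical and lectin genes and for the regulators on both chows. They were -0.23 on placebo and -0.67 on anle138b for the 2 and 3 terminal genes, and -0.22 and 0.14 for the 2 alternative pathway genes.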

How the data were processed

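The authors isolated RNA from hippocampus, prepared TruSeq mRNA libraries, aligned reads with STAR to mm10, and used HTSeq (intersection-nonempty) to count reads per gene. The deposited values are raw counts. Which annotation release was used, and whether counting was stranded, is not given in the sources used here. Groups came from the sample titles. Symbols and positions came from GENCODE M21, which has 48349 of the 48709 genes. Counts were filtered with filterByExpr (minimum count 10, minimum total count 15), scaled with TMM and tested with edgeR 4.0.16 (quasi-likelihood, robust; R 4.3.3), each pair of groups alone. Averages over chows and interactions were tested in a fit of all groups involved. Benjamini-Hochberg adjusted p under 0.1 over all genes tested counted as past the threshold. Shares of all genes called by DESeq2 are of the genes that it gave an adjusted p. Ratios and correlations used log2 CPM with a prior count of 2. The standard error was taken as the size of the log2 fold change over the root of the F statistic.

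The genes named are the 9 members, App as label check, other complement genes past the threshold between genotypes, and the 5 genes most like C1qa, C3 and C4b; Prnp, also checked, was higher in every APPPS1ΔE9 mouse. A few genes that this rule or the marker lists hold are not reported here. The members and lists were chosen with earlier results of these data known. The alternatives were DESeq2 1.42.0, RLE size factors, no filter, a threshold of 0.05, Y-linked expression as a covariate or as a selection, the replicate number as a block, a fit of 4 groups, lane 4 only, C4a added to C4b, a prior count of 0.5, and each mouse left out. Replicates were separate mice, and no 2 libraries of a group were duplicates by a chi-square test of their counts (at least 3.17 per degree of freedom in 75 pairs). The scripts were tested on simulated data.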

Additional observations from a re-analysis of the deposited data

Results flagged for a closer look

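Of 72 sets of values (9 genes in 8 groups), 1 held a mouse far from the others. C4b was at 183 CPM in mouse 3 of the post-plaque anle138b-treated APPPS1ΔE9 group, against 137 CPM in the next highest and 105 CPM in the lowest mouse of the group, a gap of 0.583 of the whole range. Chance marks about 1 in 20 such sets. Without this mouse C4b stayed past the threshold against WT mice on anle138b.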

How the results depend on the processing

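The counts of the 9 genes past the threshold moved by over 1.5 times under these alternatives, and the cause was not tested unless named. With DESeq2, the pre-plaque count was 2 on placebo, 3 averaged over chows and 1 for anle138b in APPPS1ΔE9 mice (0 in each with edgeR), and that for the difference between cohorts was 2 (0 with edgeR). In the post-plaque comparison on anle138b (5 genes), a threshold of 0.05 or no filter left 3, and on placebo (4 genes) Y-linked expression as a covariate or as a selection left 0; the selection, which leaves fewer mice, left 3 on anle138b. A fit of all 4 pre-plaque groups called 1 on placebo (0 alone). Correlations past the threshold fell from 31 to 16 in the 18 WT mice, which are fewer. RLE size factors, lane 4 only and C4a added to C4b moved no count by over 1.5 times.

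The titles number the libraries within groups without stating a pairing, and same-numbered mice did not deviate together in every pair of any comparison (r from -0.594 to 0.626). The replicate block left 1 gene on placebo and 0 on anle138b in the post-plaque genotype comparisons, 5 averaged over chows, and called 1 gene, C4b, for anle138b in pre-plaque APPPS1ΔE9 mice; it changed no other count. The number of same-numbered mice that correlated best with their own number was at most 3 of 4.

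Leaving out each mouse in turn gave counts from 4 to 4 for post-plaque placebo, 2 to 6 for post-plaque anle138b, 5 to 7 averaged over chows post-plaque, 0 to 2 for pre-plaque placebo, 0 to 2 averaged over chows pre-plaque, 0 to 1 for anle138b in pre-plaque APPPS1ΔE9 mice, 0 to 1 for the pre-plaque interaction, 0 to 2 for the difference between cohorts and 1 to 2 for the difference between WT cohorts, and 0 to 0 elsewhere, ratios included. On post-plaque anle138b, C1qa lost its call without WT mouse 1 or 2 (adjusted p = 0.104 and 0.120). C1qb and C1qc lost theirs without WT mouse 1, 2 or 4 or APPPS1ΔE9 mouse 1, 2, 6 or 7, and C1qc also without APPPS1ΔE9 mouse 3 (adjusted p from 0.102 to 0.228), while C4b and C3ar1 kept theirs without any mouse. Every gain in the pre-plaque group came without mouse 1 of the placebo-treated APPPS1ΔE9 mice. In the difference between cohorts, C1qa or C3ar1 was gained without mouse 4 of the pre-plaque placebo-treated APPPS1ΔE9 group, mouse 3 of the post-plaque placebo-treated APPPS1ΔE9 group, mouse 4 or 5 of the post-plaque anle138b-treated APPPS1ΔE9 group or mouse 3 of the post-plaque anle138b-treated WT group, and C1qb in the WT cohorts without mouse 5 of the last. Of 2961 fold changes of single genes under an alternative, 2750 kept direction and side of the threshold, 71 lost a call, 27 gained 1 and 113 uncalled ones changed sign.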
